A study of Mus musculus with 8 samples.

Results

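The report covers 35 genes that are typical of astrocytes, measured by 78 of the 45037 probe sets that were tested. A probe set belongs here when its gene symbol in the deposited table is one of the 35, and in all 19761 genes could be given a value. A gene with several probe sets is represented by its brightest one, the probe set with the highest mean signal over all arrays, and 22 of the 35 genes have several.

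The tissue was cerebral cortex of male mice. SAMR1 is the senescence-resistant control strain and SAMP8 the senescence-prone strain, in which signs of aging appear early. Each strain was sampled at 16 weeks and at 1 year, with 2 arrays for each of the 4 groups and no treatment. Grouping followed the sample titles, because the genotype entry of the SAMP8 samples is written SAMR8. Which mouse each array measured is not stated, so the spread behind every p-value is that of single arrays and may be technical. Signals are log2 values of the robust multi-array average (RMA), and a log2 difference of 1 means a doubling.

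The 8 arrays were close to each other as a whole. Their median signals lay between 4.32 and 4.36, and their correlations ranged from 0.995 to 0.9981 within groups and from 0.99 to 0.9962 between groups. Marker genes of tissue beside the cortex varied more. The mean signal of 6 hypothalamus genes was 4.73 to 4.79 in SAMR1 at 16 weeks and 3.84 to 4.01 on the 6 other arrays. SAMR1 16 weeks replicate 1 had a mean of 6.50 for 5 striatum genes, against 7.45 to 7.72 elsewhere. The mean of 4 olfactory bulb genes reached 5.21 on the first young SAMP8 array and 5.39 on the second old one, while it was 3.86 to 4.13 on the 6 others. Of the astrocyte genes, 63 of 78 probe sets had a mean signal of at least 5, as did 39.6% of all probe sets.

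Astrocytes take up glutamate and potassium that neurons release, pass metabolites to them, and wrap blood vessels with end-feet rich in water channels. They convert glutamate to glutamine, bind metals through metallothioneins and supply neurons with active thyroid hormone. With age or injury they can become reactive, a state usually read from the cytoskeletal protein Gfap.

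Of the 35 astrocyte genes, 14 had at least 1 probe set that passed the test in at least 1 comparison, 10 of them in physiological aging. The like share over all genes was not counted, and a gene with more probe sets is more easily included. Between 16 weeks and 1 year in SAMR1 (physiological aging), 12 of the 78 probe sets passed limma at an adjusted p under 0.05, 9 of them higher and 3 lower at 1 year, while 5.48% of all probe sets passed, 2.63% higher and 2.85% lower. In SAMP8 over the same ages (accelerated aging), 7 of 78 passed, 5 higher and 2 lower, beside 5.07% of all probe sets, 2.26% higher and 2.80% lower. SAMP8 against SAMR1 at 16 weeks (early events) gave 5 of 78, 3 higher and 2 lower in SAMP8, beside 1.23% of all, 0.708% higher and 0.522% lower. The same contrast at 1 year (late events) gave 1 of 78, higher in SAMP8, beside 0.688%, 0.362% higher and 0.326% lower. After quantile normalization the accelerated calls were 6 higher and 1 lower, and the early calls 1 higher and 2 lower. The other 21 genes had no probe set that passed in any of these comparisons. In bulk tissue, fewer astrocytes and less RNA per astrocyte cannot be told apart.

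Looser rules gave larger counts, for all probe sets as well. The study counted a probe set as changed when its fold exceeded 1.1 with p under 0.05 before adjustment. The rule is applied here to p-values of the limma fit to all 8 arrays, not to the study's own test. By it 28 of the 78 probe sets passed in physiological aging, beside 23.5% of all probe sets. In accelerated aging 25 passed beside 23.1%, in early events 23 beside 14.0%, and in late events 11 beside 7.57%. The arrays of the 2 ages did not overlap for 47 of 78 in SAMR1 and for 44 in SAMP8, where 52.4% of all probe sets did not overlap in either strain. At 1 year the strains did not overlap for 33 of 78, with SAMP8 higher for 12 and lower for 21, beside 38.6%, 19.2% and 19.5% of all. The counts with age were 24 higher and 23 lower in SAMR1, beside 25.0% and 27.4%, and 31 higher and 13 lower in SAMP8, beside 25.5% and 26.9%.

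Counted on the brightest probe set alone, 3 of the 35 genes passed in physiological aging, where 5.17% of all genes did. They were Sox9, which rose, and Atp1b2 and Mt3, which fell. Itih3 rose and Dio2 and Mt3 fell in accelerated aging, where 5.09% of all genes passed. In early events Dio2 and Gli3 were higher and Ntsr2 and Fgfr3 lower in SAMP8, where 1.07% of all genes passed. Mt3 was higher in SAMP8 in late events, where 0.617% of all genes passed. The remaining 27 genes did not pass in any of the 4 comparisons on this probe set, and the like share over all genes was not counted.

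**Figure D1:**
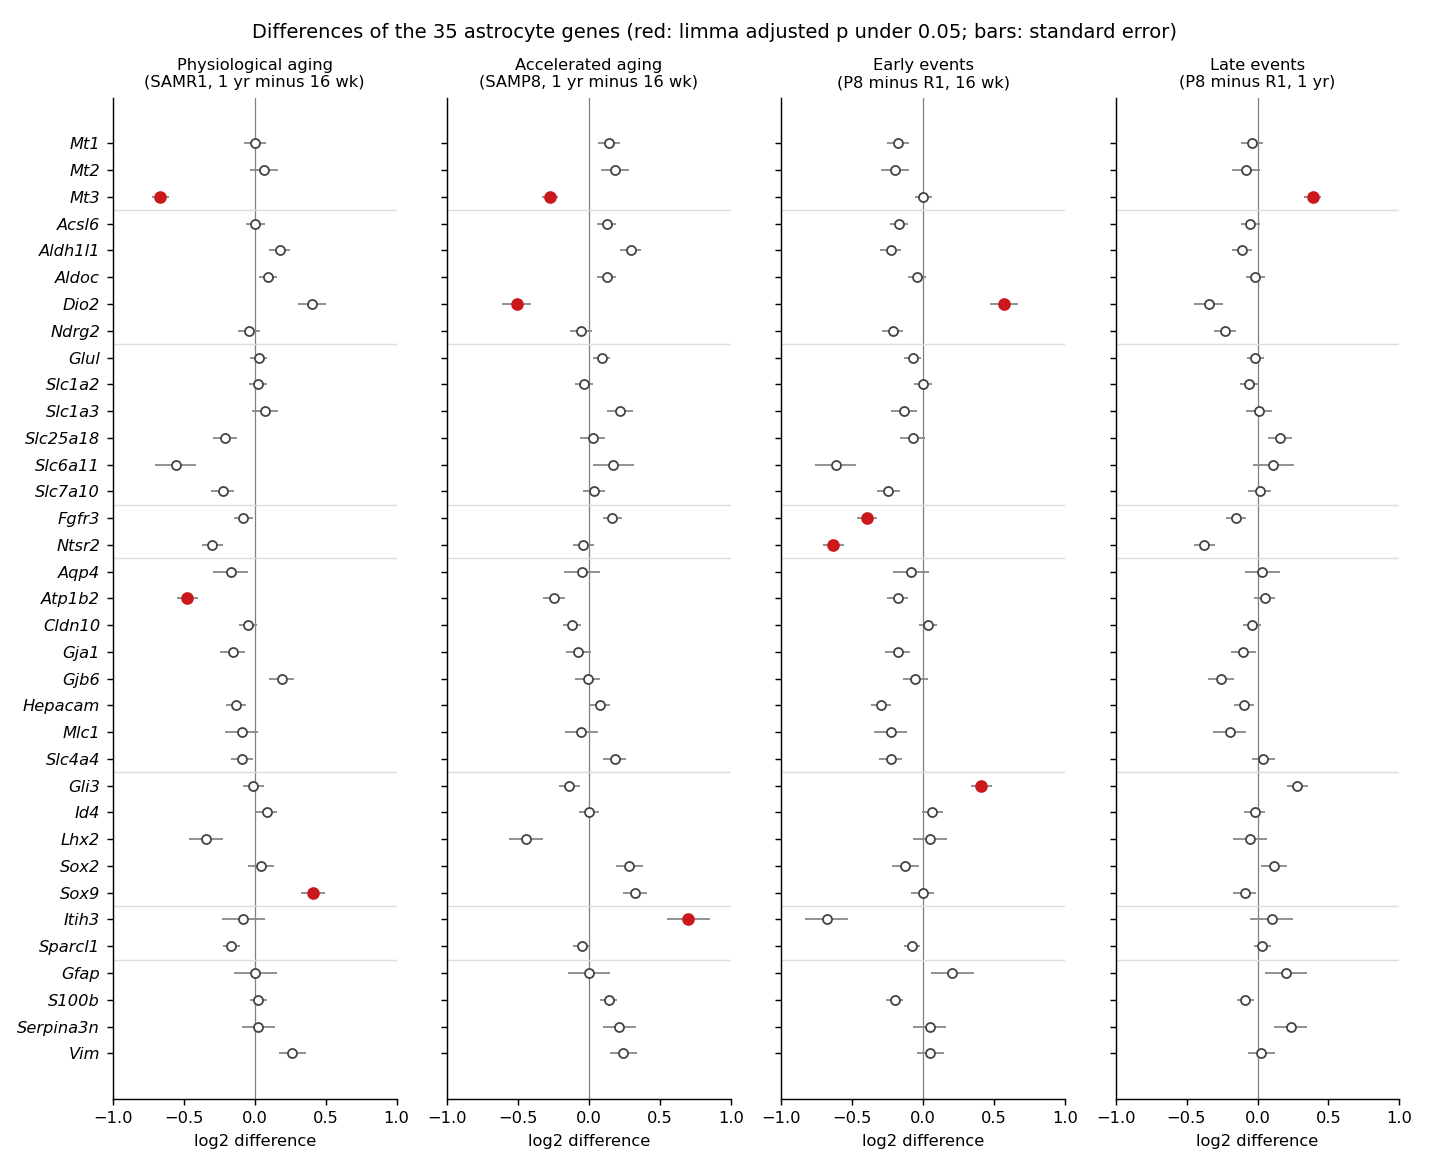
Log2 differences of the 35 astrocyte genes (brightest probe set, horizontal axis) in 4 comparisons, with standard errors from the fit to all 8 arrays; genes are in rows grouped by role, and red points passed limma at an adjusted p under 0.05. Most points lie near 0, and 3, 3, 4 and 1 genes passed from left to right.

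These calls depended on which arrays were in the fit. All arrays share 1 estimate of the spread, and each such fit has fewer arrays. A lost call therefore cannot be placed on the dropped array alone, also where that array is outside the contrast. Nor do lost calls single out astrocyte genes, because the calls over all probe sets in these fits are not set beside them. Calls said below to be kept or lost without an array refer to leaving out 1 array at a time. In physiological aging, dropping SAMR1 1 year replicate 1 left 0 of the 12 calls and dropping SAMR1 1 year replicate 2 left 1. In accelerated aging, 0 calls were made when SAMP8 16 weeks replicate 2, SAMP8 1 year replicate 1 or SAMP8 1 year replicate 2 was dropped. Dropping SAMP8 16 weeks replicate 1 gave 4 calls, and dropping SAMR1 1 year replicate 1 or 2 gave 2. In early events, dropping SAMP8 16 weeks replicate 2 gave 0 calls and dropping SAMP8 1 year replicate 1 or 2 gave 2. There 1 call was made when SAMP8 16 weeks replicate 1, SAMR1 16 weeks replicate 1 or one of the SAMR1 1 year arrays was dropped. In late events, the single call was lost without any 1 of the 4 arrays at 1 year, and 2 calls were made without either SAMR1 16 weeks array. No called probe set reversed its direction when an array was left out. This was fixed in advance, because the arrays compared did not overlap for any called probe set.

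The 3 metallothioneins are small cysteine-rich proteins that bind zinc and copper. Mt1 and Mt2 are inducible by metals and glucocorticoids in many tissues, and Mt3 is the form found mainly in the brain. Mt3 signals were 7.93 and 7.98 in SAMR1 at 16 weeks, 7.29 and 7.29 in SAMR1 at 1 year, 7.97 and 7.94 in SAMP8 at 16 weeks, and 7.69 and 7.67 in SAMP8 at 1 year. The young arrays of both strains overlapped, both old groups lay below them, and the SAMR1 arrays at 1 year were the lowest of all.

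Mt3 fell by 0.67 on the log2 scale with age in SAMR1 (SE 0.06, limma adjusted p = 0.00464), a 1.59-fold difference. It fell by 0.28 in SAMP8 (limma adjusted p = 0.0381). At 16 weeks the strains had the same mean, 7.96 each, and at 1 year Mt3 was 0.39 higher in SAMP8 (limma adjusted p = 0.0254). This contrast shares its old arrays with the falls in SAMR1 and SAMP8. Mt3 was the only astrocyte gene whose brightest probe set passed in both strains' age comparisons. Leaving out 1 array at a time kept the fall in SAMR1 between -0.69 and -0.64. Its call was lost only without SAMR1 1 year replicate 1 (limma adjusted p = 0.0578). The fall in SAMP8 stayed between -0.29 and -0.26 and its call was kept in 2 of the 8 cases, those without a SAMR1 16 weeks array, with adjusted p from 0.0336 to 0.184. It was also lost after quantile normalization, at -0.23 (limma adjusted p = 0.0634).

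The 2 inducible forms gave smaller differences, and neither passed. Mt1 signals were 10.53 and 10.46 in SAMR1 at 16 weeks and 10.57 and 10.43 at 1 year, and 10.39 and 10.25, then 10.43 and 10.49 in SAMP8. The Mt1 arrays of the 2 ages overlapped in SAMR1, and in SAMP8 both old arrays lay above the young ones. The log2 differences of Mt1 with age were 0.01 (SE 0.08) in SAMR1 and 0.14 in SAMP8, and those of Mt2 were 0.07 (SE 0.10) and 0.18. No comparison between the strains passed for them either. The Mt1 probe set carries the suffix _s_at, which marks probes shared by related transcripts, so its signal may include more than Mt1.

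The 3 genes lie side by side on mouse chromosome 8. Mt3 is at chr8:94152607-94154148, Mt2 at chr8:94172618-94173567 and Mt1 at chr8:94178883-94180327 in GRCm38.p6, with 18469 bases between Mt3 and Mt2 and 5315 between Mt2 and Mt1. The 250 bases before each RefSeq start are shown, all on the plus strand, because Mt3 passed and its neighbours did not. Capitals mark the core of the metal response element, searched as TGCACNC and TGCGCNC on both strands.
Mt1 (chr8:94178839-94179088): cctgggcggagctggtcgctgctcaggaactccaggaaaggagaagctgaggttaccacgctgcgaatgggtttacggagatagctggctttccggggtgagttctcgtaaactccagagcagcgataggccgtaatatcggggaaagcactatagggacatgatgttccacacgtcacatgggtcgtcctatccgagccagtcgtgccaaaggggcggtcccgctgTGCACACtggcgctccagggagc
Mt2 (chr8:94172368-94172617): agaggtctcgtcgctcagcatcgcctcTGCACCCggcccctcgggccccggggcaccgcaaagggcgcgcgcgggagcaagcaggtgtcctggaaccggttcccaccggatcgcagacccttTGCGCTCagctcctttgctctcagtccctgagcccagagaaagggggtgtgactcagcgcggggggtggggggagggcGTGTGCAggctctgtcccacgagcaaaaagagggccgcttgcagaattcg
Mt3 (chr8:94152357-94152606): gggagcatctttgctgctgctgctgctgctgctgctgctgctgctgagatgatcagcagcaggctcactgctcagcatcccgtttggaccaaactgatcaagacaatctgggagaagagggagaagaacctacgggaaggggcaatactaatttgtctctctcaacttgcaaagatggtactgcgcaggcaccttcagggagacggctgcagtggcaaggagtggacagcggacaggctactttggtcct
The Mt1 window precedes a transcript start that lies inside the span given for the gene. It therefore overlaps that span, unlike the windows of Mt2 and Mt3, and its count is not of a like position. In the windows shown, Mt2 holds 3 matches, Mt1 holds 1 and Mt3 holds 0. A link between these matches and the calls was not tested. Of 32851 promoters of this length, 21.4% hold at least 1 match and 1.26% hold at least 3.

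Of the 5 metabolic genes, only Dio2 passed on its brightest probe set. Dio2 encodes the type 2 deiodinase, which turns thyroxine into the active hormone triiodothyronine, in brain mainly in astrocytes and tanycytes. Its signals were 6.99 and 7.10 in SAMR1 at 16 weeks, 7.55 and 7.35 in SAMR1 at 1 year, 7.64 and 7.59 in SAMP8 at 16 weeks, and 7.23 and 6.98 in SAMP8 at 1 year. Young SAMP8 arrays were the highest, and the groups of neither strain overlapped between ages. The order of ages was opposite in the 2 strains.

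Dio2 fell by 0.51 in SAMP8 with age (SE 0.10, limma adjusted p = 0.0308), and in SAMR1 it was 0.41 higher at 1 year, which did not pass (adjusted p = 0.0553). At 16 weeks it was 0.57 higher in SAMP8 than in SAMR1 (limma adjusted p = 0.0374), and at 1 year the difference was -0.34 (adjusted p = 0.322). The age change differed between the strains by -0.92 (SE 0.14), with a limma adjusted p of 0.189. The other 2 Dio2 probe sets rose in SAMR1, by 0.94 (adjusted p = 0.0233) and 0.57 (adjusted p = 0.049). The call of the first was lost when either SAMR1 1 year array was dropped (0.158 and 0.085), and that of the second when any 1 array was dropped (0.0527 to 0.212). In SAMP8 they differed by 0.10 and 0.22 between the ages and did not pass, the opposite sign to the brightest probe set. On the mean of the 3 probe sets the difference with age in SAMP8 was -0.06 (limma adjusted p = 0.789), and that between the strains at 16 weeks 0.39 (adjusted p = 0.162). The call with age in SAMP8 was kept only without either SAMR1 16 weeks array, with adjusted p up to 0.161 otherwise. That at 16 weeks was kept without SAMR1 16 weeks replicate 2 or either SAMP8 1 year array, with adjusted p up to 0.159 otherwise.

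**Figure D2:**
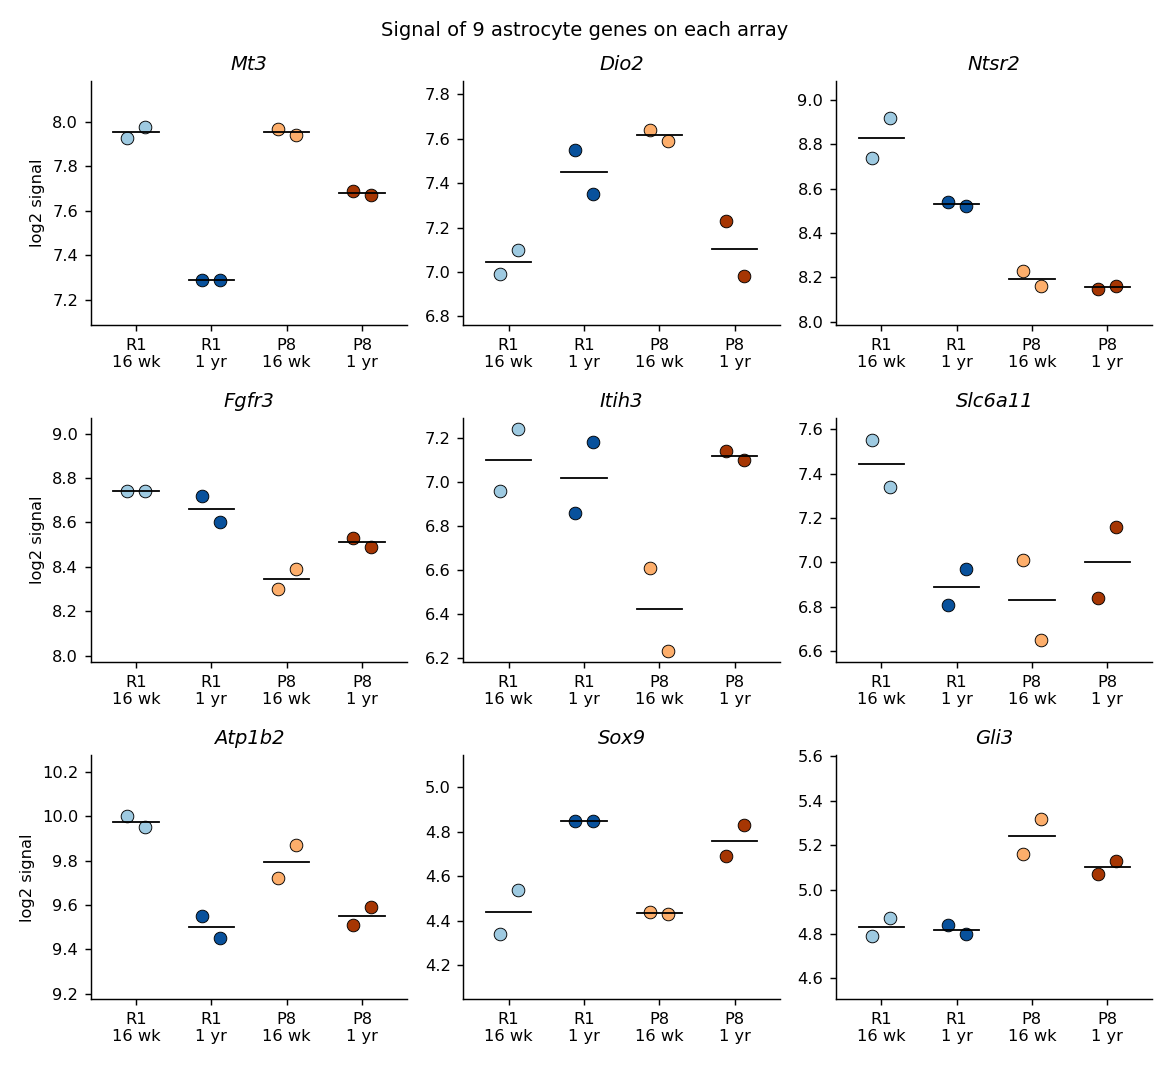
Log2 signal (vertical axis) of 9 astrocyte genes on each of the 8 arrays, 2 per group, with the group mean as a bar; R1 is SAMR1 and P8 is SAMP8. Mt3 is lowest in SAMR1 at 1 year, Dio2 highest in SAMP8 at 16 weeks, and Ntsr2 lower on all 4 SAMP8 arrays than on all 4 SAMR1 arrays.

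The start of Dio2 lies on the minus strand of chromosome 12, and the gene spans chr12:90724552-90739038 in GRCm38.p6. The 250 bases before its RefSeq start are given since Dio2 passed both with age and between strains, contrasts that share the young SAMP8 arrays. Capitals mark the cAMP response element TGACGTCA, which reads the same on both strands, and 1.55% of the 32851 promoters hold it.
Dio2 (chr12:90739039-90739288): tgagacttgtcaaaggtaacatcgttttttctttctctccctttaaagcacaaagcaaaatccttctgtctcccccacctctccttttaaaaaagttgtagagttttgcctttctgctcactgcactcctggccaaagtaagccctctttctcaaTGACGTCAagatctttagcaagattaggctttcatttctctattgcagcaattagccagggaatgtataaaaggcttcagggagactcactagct
The match begins 95 bases before the start.

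The other metabolic genes moved less. Aldh1l1, a folate enzyme used as a general astrocyte marker, had signals of 6.42 and 6.54, then 6.70 and 6.61 with age in SAMR1. In SAMP8 they were 6.30 and 6.20 at 16 weeks, then 6.57 and 6.52. In both strains the 2 ages did not overlap and the old arrays were the higher ones. The log2 differences of Aldh1l1 with age were 0.17 in SAMR1 (limma adjusted p = 0.193) and 0.29 in SAMP8 (0.055), and neither passed. Ndrg2, a differentiation-linked protein of astrocytes, was lower in SAMP8 by 0.21 at 16 weeks and by 0.23 at 1 year, and did not pass (adjusted p = 0.25 and 0.422). The glycolytic enzyme Aldoc and the acyl-CoA synthetase Acsl6 stayed within 0.17 of 0 in all 4 comparisons.

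Both receptor genes were lower in young SAMP8. Ntsr2 is a receptor for the peptide neurotensin and Fgfr3 one for fibroblast growth factors. Ntsr2 signals were 8.74 and 8.92 in SAMR1 at 16 weeks, 8.54 and 8.52 in SAMR1 at 1 year, 8.23 and 8.16 in SAMP8 at 16 weeks, and 8.15 and 8.16 in SAMP8 at 1 year. Every SAMP8 array lay below every SAMR1 array. Ntsr2 was lower in SAMP8 by 0.64 at 16 weeks, 1.55-fold (SE 0.07, limma adjusted p = 0.00639). At 1 year the difference was -0.38 and did not pass (adjusted p = 0.0874), as was the case for the difference with age in SAMR1, -0.30 (adjusted p = 0.054). Leaving out 1 array at a time kept the difference at 16 weeks between -0.725 and -0.545. Among these fits its call was lost only without SAMP8 16 weeks replicate 2. Over all 19 settings tried, the call was kept in 16 and lost in 3, but some of the kept settings could not differ. Ntsr2 has 1 probe set, so taking that of smallest p repeats it, and the deposited series matrix holds the same values.

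Fgfr3 signals were 8.74 and 8.74 in SAMR1 at 16 weeks, 8.72 and 8.60 at 1 year, then 8.30 and 8.39 in SAMP8 at 16 weeks and 8.53 and 8.49 at 1 year. Again all SAMP8 arrays lay below all SAMR1 arrays, and the gap was wider in the young mice. The other Fgfr3 probe set was dim, with a mean signal of 4.57. At 16 weeks Fgfr3 was 0.40 lower in SAMP8 (SE 0.07, limma adjusted p = 0.0352). This call was lost whichever of the 8 arrays was left out (adjusted p from 0.0606 to 0.13), with the replicate number as a block (0.0514) and on the mean of its 2 probe sets, where the difference was -0.24 (0.149).

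None of the 6 genes for glutamate, GABA and amino acid handling passed limma on its brightest probe set, and 4 of them had an unadjusted p under 0.05 in at least 1 of the 4 comparisons, as did 41.6% of all genes. Slc1a2 (GLT-1), the main glutamate transporter of the forebrain, ranged only from 11.43 to 11.53 over the 8 arrays. Glutamine synthetase, Glul, ranged from 10.86 to 10.98. The 2 ages overlapped for both genes in SAMR1. In SAMP8 they did not, with Glul higher and Slc1a2 lower on the old arrays. Their differences with age lay between -0.04 and 0.09 with SE 0.06.

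Slc6a11, the GABA transporter GAT-3 of astrocytes, varied more. Its signals were 7.55 and 7.34 in SAMR1 at 16 weeks, 6.81 and 6.97 in SAMR1 at 1 year, 7.01 and 6.65 in SAMP8 at 16 weeks, and 6.84 and 7.16 in SAMP8 at 1 year. The young SAMR1 arrays stood above all others, which overlapped. The difference was -0.56 with age in SAMR1 (SE 0.14, limma adjusted p = 0.0627) and -0.62 between the strains at 16 weeks (adjusted p = 0.103), and neither passed. Both contrasts rest on the same 2 young SAMR1 arrays, on which thalamus markers were also high, at 6.03 and 6.54 against 5.65 to 5.90 elsewhere. The part of these markers in the result was not tested. Slc7a10, a serine transporter, showed -0.22 and -0.24 in the same 2 contrasts (adjusted p = 0.135 and 0.219).

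Slc1a3 (GLAST), the second glutamate transporter of astrocytes, gave different answers on different probe sets. The brightest of its 6 probe sets read 9.27 and 9.22 in SAMR1 at 16 weeks and 9.41 and 9.23 at 1 year, with overlap and a difference of 0.07 (limma adjusted p = 0.673). Probe set 1443749_PM_x_at read 8.31 and 8.50, then 9.12 and 9.02 with age in SAMR1, and 8.24 and 8.19, then 9.04 and 8.96 in SAMP8. On it the old arrays of both strains stood clear of the young ones.

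This Slc1a3 probe set rose by 0.67 in SAMR1 (limma adjusted p = 0.00918) and 0.79 in SAMP8 (adjusted p = 0.00906). Another, 1426341_PM_at, rose by 0.64 (adjusted p = 0.0147) and 0.43 (adjusted p = 0.0438). The other 4 Slc1a3 probe sets lay between 0.05 and 0.08 in SAMR1 and between 0.03 and 0.22 in SAMP8, and did not pass. Without either SAMR1 1 year array the SAMR1 calls of both were lost (adjusted p from 0.0527 to 0.117). The SAMP8 call of the first was lost without SAMP8 16 weeks replicate 2 or either SAMP8 1 year array (0.0582 to 0.0802). That of the second was lost without these and without either SAMR1 1 year array (0.0819 to 0.199). Slc25a18, a mitochondrial glutamate carrier, also split. Its brightest probe set was lower by 0.21 at 1 year in SAMR1 and did not pass (adjusted p = 0.186), while its second rose by 0.36 (adjusted p = 0.0496), a call that was lost without any SAMR1 array or either SAMP8 1 year array (0.0816 to 0.216).

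Of the 8 genes for gap junctions, water and ions, 1 passed on its brightest probe set. Atp1b2, the beta subunit of the sodium pump of glia, had signals of 10 and 9.95 in SAMR1 at 16 weeks and 9.55 and 9.45 at 1 year. In SAMP8 they were 9.72 and 9.87 at 16 weeks and 9.51 and 9.59 at 1 year. In both strains the old arrays lay below the young ones without overlap. Atp1b2 fell by 0.47 in SAMR1 (SE 0.08, limma adjusted p = 0.016), while its difference of -0.24 in SAMP8 did not pass (0.098). The SAMR1 call was lost without either SAMR1 1 year array (adjusted p = 0.106 and 0.1).

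The water channel Aqp4 and the connexins Gja1 and Gjb6, which form gap junctions, did not pass on their brightest probe sets. Aqp4 ranged from 8.48 to 8.63 on 7 arrays and stood at 8.93 on SAMR1 16 weeks replicate 1. Gja1 ranged from 9.90 to 10.30, with a difference of -0.16 with age in SAMR1 (limma adjusted p = 0.328). Dimmer probe sets of the same genes gave other values. Aqp4 probe set 1447745_PM_at rose from 4.40 and 4.35 to 5.04 and 4.98 in SAMR1 and from 4.52 and 4.53 to 4.90 and 5.07 in SAMP8. These are rises of 0.64 (limma adjusted p = 0.00811) and 0.46 (adjusted p = 0.0195), on a probe set whose mean signal was 4.72.

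Gja1 probe set 1415801_PM_at was low only on the young SAMR1 arrays, at 5.14 and 5.51, with 5.95 to 6.31 on the other 6. It therefore passed in physiological aging, at 0.87 (limma adjusted p = 0.012), and in early events, at 0.65 (adjusted p = 0.0474), 2 contrasts that share those arrays. The 5 other Gja1 probe sets lay between -0.16 and 0.15 in physiological aging and between -0.26 and -0.11 in early events. Slc4a4, a sodium bicarbonate cotransporter, rose on 1 of 5 probe sets, by 0.56 in SAMR1 (adjusted p = 0.0209) and 0.44 in SAMP8 (0.0429). Its brightest differed by -0.09 and 0.18 and did not pass. Without either SAMR1 1 year array the physiological calls of these Aqp4, Gja1 and Slc4a4 probe sets were lost (adjusted p from 0.0527 to 0.145). In SAMP8 the Aqp4 call was lost without any 1 SAMP8 array (0.0577 to 0.119). The Slc4a4 call in SAMP8 was lost without SAMP8 16 weeks replicate 2, either SAMP8 1 year array or either SAMR1 1 year array (0.0769 to 0.2). The Gja1 call in early events held only without SAMR1 16 weeks replicate 2 (adjusted p = 0.00804, and 0.0727 to 0.211 otherwise).

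**Figure D3:**
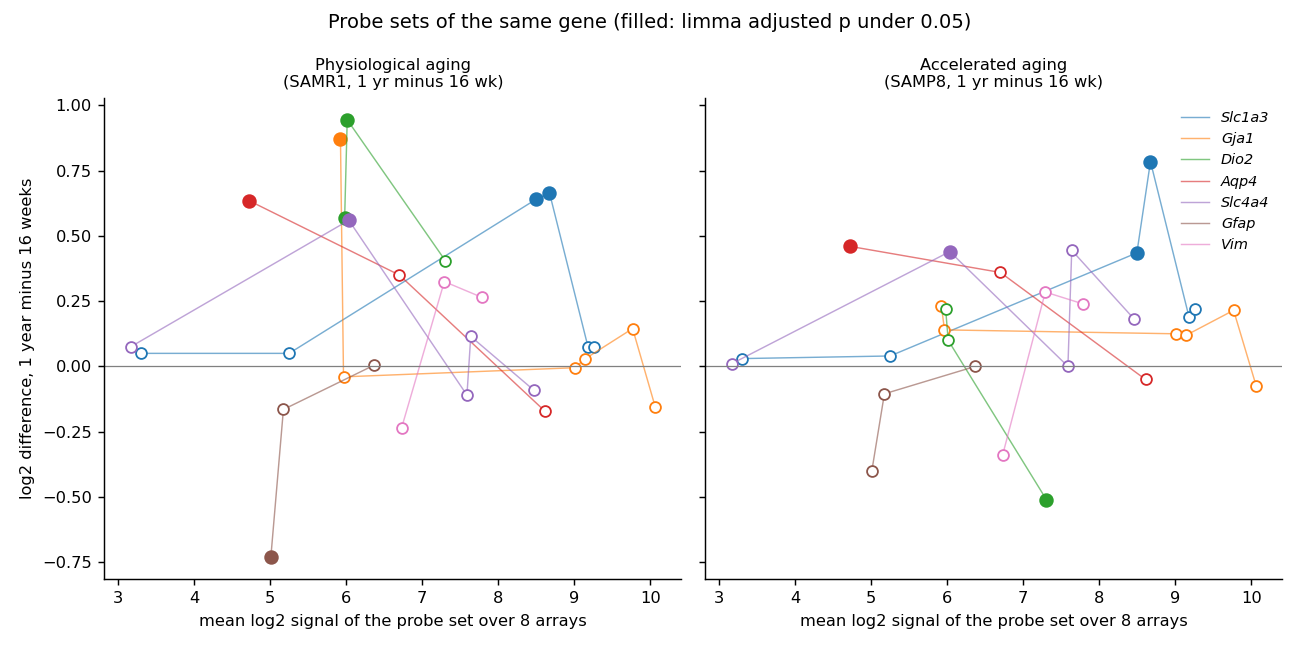
Log2 difference with age (vertical axis) against the mean log2 signal (horizontal axis) for each probe set of 7 astrocyte genes, in SAMR1 (left) and SAMP8 (right); lines join probe sets of the same gene, and filled points passed limma at an adjusted p under 0.05. In SAMR1 the brightest probe set of each gene lies between -0.17 and 0.41, while filled points lie between -0.73 and 0.94.

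Brightest and other probe sets were also counted over all 35 genes, with no test of the difference between them. Of the 43 probe sets that were not a gene's brightest, 9 passed in physiological aging (20.9%), 8 of them higher at 1 year, beside 6.62% of the other probe sets of all genes. Of the 35 brightest, 3 passed (8.57%), beside 5.17%. In accelerated aging the numbers were 4 of 43 and 3 of 35, beside 5.68% and 5.09%, and in early events 1 of 43 and 4 of 35, beside 1.36% and 1.07%. No gene had probe sets that passed in opposite directions within 1 comparison. Of the 78 probe sets, 10 carry a suffix (_s_at or _x_at) for probes that related transcripts can share. The labels and the paper name different labelling kits, so the stretch of transcript each signal comes from is not settled.

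The cell-junction proteins Hepacam and Mlc1, which bind each other, were lower in young SAMP8 by 0.30 and 0.23, without passing (limma adjusted p = 0.101 and 0.429). For Hepacam the arrays were 7.51 and 7.55 in SAMR1 and 7.31 and 7.15 in SAMP8 at 16 weeks, with no overlap. Gjb6 was lower by 0.26 in old SAMP8 (adjusted p = 0.495). The claudin Cldn10 ranged from 7.18 to 7.36 over all arrays, and its differences lay between -0.12 and 0.04.

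Among 5 transcription regulators, Sox9 rose with age in SAMR1 and Gli3 was higher in young SAMP8, each on its brightest probe set only. These were the only 2 members whose brightest probe set had a mean signal under 5, at 4.62 and 4.9975. Sox9 specifies glia in the developing nervous system and stays on in adult astrocytes. Its signals were 4.34 and 4.54 at 16 weeks and 4.85 and 4.85 at 1 year in SAMR1, and 4.44 and 4.43, then 4.69 and 4.83 in SAMP8. The old arrays of both strains lay above all young ones. Sox9 rose by 0.41 in SAMR1 (SE 0.08, limma adjusted p = 0.03), and the difference of 0.32 in SAMP8 did not pass (0.0586). Its other 2 probe sets, whose mean signals of 3.94 and 3.48 lay below the array medians, differed by -0.24 and -0.13 in SAMR1. The mean of all 3 differed by 0.01 (limma adjusted p = 0.919). The call was lost without SAMR1 16 weeks replicate 1 or either SAMR1 1 year array (0.0801 to 0.162).

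Gli3, a transcription factor of the hedgehog pathway, had signals of 4.79 and 4.87 in SAMR1 at 16 weeks and 4.84 and 4.80 at 1 year, then 5.16 and 5.32 and 5.07 and 5.13 in SAMP8. All SAMP8 arrays lay above all SAMR1 arrays. It was 0.41 higher in SAMP8 at 16 weeks (SE 0.07, limma adjusted p = 0.0406), and 0.28 higher at 1 year, which did not pass (0.238). Its 2 dimmer probe sets, with mean signals of 4.54 and 3.295, differed by -0.06 and -0.10 at 16 weeks. The call at 16 weeks held only without SAMR1 16 weeks replicate 2 (adjusted p = 0.0442, and 0.0625 to 0.175 otherwise). It was also lost after quantile normalization (0.0503) and with a robust variance trend (0.0543).

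Lhx2, a homeobox factor, differed by -0.34 in SAMR1 and -0.44 in SAMP8 with age, and Sox2, a factor of neural stem cells and glia, by 0.04 and 0.29. Neither passed (limma adjusted p = 0.126 and 0.0682 for Lhx2, 0.819 and 0.112 for Sox2). Id4, an inhibitor of helix-loop-helix factors, ranged from 8.84 to 9.03 on its brightest probe set, with overlapping groups.

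Itih3 was the secreted protein that moved. It is a heavy chain of the inter-alpha-trypsin inhibitor, which binds hyaluronan. Its signals were 6.96 and 7.24 in SAMR1 at 16 weeks, 6.86 and 7.18 at 1 year, 6.61 and 6.23 in SAMP8 at 16 weeks, and 7.14 and 7.10 at 1 year. The young SAMP8 arrays lay below the other 6, which overlapped. Itih3 rose by 0.70 with age in SAMP8, 1.62-fold (SE 0.15, limma adjusted p = 0.0379), and its difference of -0.68 between the strains at 16 weeks did not pass (0.0846). The call was lost without SAMP8 16 weeks replicate 2, either SAMP8 1 year array or either SAMR1 1 year array (0.0561 to 0.186). Choroid plexus markers, 9 genes led by Ttr, differed between the same ages. Their mean was 4.08 and 4.16 in young and 4.79 and 4.56 in old SAMP8, and their part in the result was not tested. Sparcl1, a matricellular protein that promotes synapse formation, ranged from 10.71 to 10.88 and did not pass.

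None of the 4 cytoskeletal and reactive markers passed limma on its brightest probe set, and 2 of them had an unadjusted p under 0.05 in at least 1 of the 4 comparisons, where 41.6% of all genes did. Gfap, the intermediate filament protein of astrocytes, read 6.54 and 5.99 in SAMR1 at 16 weeks, 6.20 and 6.34 at 1 year, 6.46 and 6.48 in SAMP8 at 16 weeks, and 6.44 and 6.50 at 1 year. All groups overlapped except old SAMR1 with SAMP8, and the 2 young SAMR1 arrays spanned the widest range. The log2 difference with age was 0.01 in SAMR1 and 0.00 in SAMP8, each with SE 0.15. Between the strains it was 0.20 at either age (limma adjusted p = 0.599 at 16 weeks and 0.908 at 1 year). The dimmest of 3 Gfap probe sets, at 5.38 and 5.10 in young and 4.48 and 4.54 in old SAMR1, fell by 0.73 (adjusted p = 0.0187). That call was lost without either SAMR1 1 year array (0.135 and 0.0932).

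Vim, another intermediate filament protein, was 0.27 and 0.24 higher at 1 year in SAMR1 and SAMP8 on its brightest probe set, which did not pass (limma adjusted p = 0.138 and 0.176), and its dimmest differed by -0.24 and -0.34. Serpina3n, a protease inhibitor induced in reactive astrocytes, differed by 0.03 in SAMR1 and 0.22 in SAMP8 (adjusted p = 0.926 and 0.315). S100b, a calcium-binding protein, was 0.20 lower in young SAMP8 and did not pass (0.187).

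Differences between the strains at 16 weeks were more often negative than positive. At 16 weeks 25 of the 35 genes had a negative and 8 a positive difference, with a median of -0.12, while the median over all genes was 0.00. The 2 groups of arrays did not overlap, with SAMP8 lower, for 31 of the 78 probe sets, and with SAMP8 higher for 8, beside 19.1% and 18.4% of all probe sets (39 in all, beside 37.5%). The median stayed between -0.16 and -0.10 when single arrays were left out. In physiological aging, accelerated aging and late events the medians were -0.01, 0.04 and -0.02, beside -0.03, -0.03 and 0.01 over all genes. Oligodendrocyte genes were also lower in young SAMP8, with means of 8.51 and 8.64 against 8.85 and 8.89, and 9 of their 10 differences were negative. Thalamus and hypothalamus markers were lower too, 5 of 5 and 6 of 6 genes, and so were 8 of 9 choroid plexus markers. Other lists were higher in young SAMP8, with 7 of 8 neuron genes (median 0.10), 5 of 5 striatum genes (median 0.36) and 21 of 34 reactive astrocyte genes. The striatum means overlapped, at 6.50 and 7.72 in young SAMR1 and 7.61 and 7.69 in young SAMP8. So did the choroid plexus means, at 4.85 and 4.14 in young SAMR1 and 4.08 and 4.16 in young SAMP8. The part of these markers in the result was not tested.

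**Figure D4:**
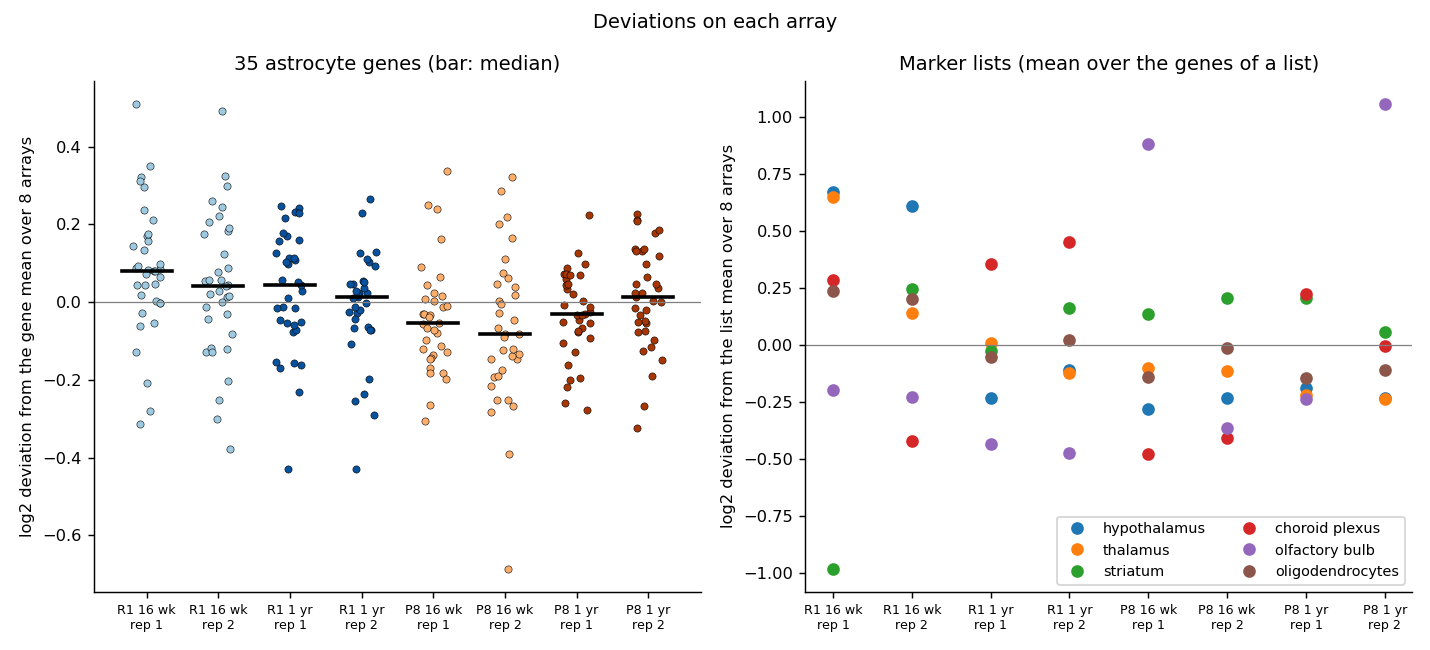
Left, log2 deviation of each of the 35 astrocyte genes from its mean over the 8 arrays, by array, with the median as a bar; right, the same for the mean of 6 marker lists. The medians of the young SAMP8 arrays are lowest, at -0.05 and -0.08, and the hypothalamus list is highest on the young SAMR1 arrays.

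When the age change of SAMP8 was set against that of SAMR1, no astrocyte probe set passed after adjustment, and almost none of the array did. By limma 0 of 78 probe sets passed, beside 0.00222% of all probe sets, while 11 had an unadjusted p under 0.05, and all 11 also passed the study's rule, beside 6.92%. The smallest belonged to Dio2. Mt3 followed, whose fall was 0.39 smaller in SAMP8 (limma adjusted p = 0.347), then a Gja1 probe set at -0.64 (adjusted p = 0.465). Itih3 at 0.78 (0.474) and Slc6a11 at 0.72 (0.49) came next.

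A further 46 genes with known expression in astrocytes were looked at beside them, with median differences of -0.05, -0.01, -0.08 and -0.03 in the 4 comparisons. In physiological aging 4 of 46 fell and 1 rose, beside 5.17% of all genes that passed, 1.39% higher and 3.78% lower. In accelerated aging 2 of 46 fell, near the 5.09% of all genes that passed. In early and late events 2 and 3 were lower in SAMP8, beside 1.07% and 0.617% of all genes. Lcat, which esterifies cholesterol on lipoproteins, fell by 0.47 in SAMR1 (limma adjusted p = 0.0104) and 0.30 in SAMP8 (0.0364). Daam2, a formin, fell by 0.32 (0.038) and 0.37 (0.0275). Sparc, a secreted relative of Sparcl1, fell by 0.57 in SAMR1 (0.0223) and was 0.57 lower in young SAMP8 (0.0421), contrasts that share the young SAMR1 arrays. Gldc, of the glycine cleavage system, rose by 0.41 in SAMR1 (0.0312).

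Entpd2, an ectonucleotidase, was 0.64 lower in SAMP8 at 16 weeks (limma adjusted p = 0.0129). Its arrays read 5.16 and 5.28 in SAMR1 and 4.70 and 4.46 in SAMP8, with no overlap. At 1 year Fam107a, an actin-associated protein, was lower in SAMP8 by 0.49 (adjusted p = 0.0224), Eva1a by 0.46 (0.025) and the thyroid hormone and organic anion transporter Slco1c1 by 0.50 (0.0477). Slco1c1 read 8.50 and 8.41 in SAMR1 and 8.08 and 7.83 in SAMP8 at 1 year.

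Of 35 genes of reactive astrocytes, 34 had a probe set, with median differences of -0.05, -0.06, 0.07 and 0.04. Their mean signal was only 4.36 to 4.48 on the 8 arrays, near the array medians of 4.32 to 4.36. At so low a signal, few calls do not show that these genes were unchanged. In physiological aging 0 of 34 passed limma and 5 had an unadjusted p under 0.05, beside 23.1% of all genes. In late events the counts were 0 and 2, beside 7.59%. In accelerated aging 2 of 34 passed, beside 5.09% of all genes, and in early events 1 of 34, beside 1.07%. With age in SAMP8, Ptgs2, the inducible cyclooxygenase that neurons also express, fell by 0.98 (limma adjusted p = 0.0169). The small heat shock protein Hspb1 fell by 0.51 (0.0336). Hspb1 was 0.62 higher in young SAMP8 than in young SAMR1 (0.0305). Its signals were 6.02 and 6.31 in young SAMP8 and 5.45 to 5.78 on the other 6 arrays, so the young SAMP8 arrays stood above all the rest.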

How the data were processed

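Cortex RNA of 8 samples was hybridised to MG-430 PM array strips. The authors made log2 signals by RMA and deposited them to 2 decimals. The submitters' notes name RMA and limma, and the labelling kit differs between the labels, the series text and the paper. The series matrix holds the same values, and 4 tables of the authors' comparisons (means, folds, p-values, FDR) were not used. After leaving out 40 controls, 45037 probe sets were tested; 64 with a date as symbol were given no gene. limma 3.58.1 in R 4.3.3 fitted 4 group means to all 8 arrays, with Benjamini-Hochberg adjustment over all probe sets; every adjusted p is from it. Scripts were tested on simulated data. The number of arrays limits the precision. Full values are given for genes whose brightest probe set passed, up to 6 next by p, and genes whose probe sets disagree; other lists name up to 4 called genes. Members and lists were chosen with earlier results of these data known. Positions and promoters (31 of 35 genes) are RefSeq's for GRCm38.p6.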

Additional observations from a re-analysis of the deposited data

How the results depend on the processing

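Settings are those of limma with 12, 7, 5, 1 and 0 astrocyte probe sets called in physiological aging, accelerated aging, early events, late events and the strain difference in the age change. Leaving out 1 array at a time gave 0 to 14, 0 to 10, 0 to 5, 0 to 2 and 0 to 0. With only the 4 arrays of a comparison, 0 were called in physiological aging and 0 in early events. One-way analysis of variance on those arrays, without moderation, called 0 in each of the 4 comparisons after Benjamini-Hochberg adjustment. At the study's threshold (unadjusted p under 0.05 and a fold above 1.1) it called 11 in accelerated aging and 7 in late events, and the same threshold on the limma fit called 28, 25, 23, 11 and 11. In early events array weights called 1 and quantile normalization 3, 1 higher and 2 lower. In late events the robust variance trend and array weights called 2 each. Quantile normalization made the accelerated calls 6 higher and 1 lower. No called probe set reversed under any of these settings. This was fixed in advance wherever a fit used the same signals, because the arrays compared did not overlap for any called probe set. Only centring, quantile normalization and another choice of a gene's probe sets change the signals themselves. With the replicate number as a block, 12, 9, 5, 1 and 0 were called and 23 of the 25 calls were kept. Deviations of same-numbered arrays correlated between -0.0863 and 0.196, the highest between the 2 groups of 16 weeks. With 2 arrays per group this cannot exclude handling shared by replicate number. The median over the members, with all 78 probe sets in place of the brightest, was 0.03, 0.09, -0.08 and -0.04; leaving out arrays for this median was chosen after seeing the data. For all probe sets, centring each array on its median changed the share of higher calls in accelerated aging from 44.7% to 33.9%. The cause of these changes was not tested, apart from the fewer arrays in the fits that leave arrays out. Calls over all probe sets are not set beside the astrocyte counts of these settings, so a change in those counts does not single out astrocyte genes.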
